A study of Mus musculus with 13 samples.

Results

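Reads deposited under 10 genes that mark macrophages in tumors (Lyz2, Ctss, Laptm5, Spp1, Lgals3, Gpnmb, Arg1, Cd68, Mrc1 and Tyrobp) were followed across 10 mouse glioblastomas and 3 normal brain samples. The 10 genes were found among the 55416 genes of the count table by their Ensembl identifiers, matched to symbols in the GENCODE M21 annotation. They were picked by name with earlier results of these data known, including all 3 comparisons below. Their values and differences are therefore given as a description, with no test.

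PDGFB tumors (n = 5) were induced by a lentivirus carrying PDGFB, a platelet-derived growth factor, and RAS tumors (n = 5) by one carrying HRasV12, an oncogenic Ras. Each virus further carried an sh-p53 hairpin. The virus was given into the motor cortex of CNP-Cre mice (Cnp tm1(cre)Kan), in which Cre recombinase is made from the oligodendrocyte gene Cnp, and GFP-positive tumor tissue came from 5 mice per group at end point. Normal brain tissue (n = 3) was labelled WT, with no brain region and no number of animals, and the study's text speaks of normal tissue trimmed off tumors without saying whether these samples are meant. Normal brain 3 is titled MBT-F2 where the other titles begin with NBT; it was grouped by its tissue label, and what the differing title means is not given. No ages were given. Polyadenylated RNA was sequenced from whole tissue, so that fewer cells of a type and less RNA per cell cannot be told apart. The titles of the normal samples end in differing codes, each a letter M or F with a number. No label states whether these codes mark sex or separate animals, so the spread of the normal samples may be partly technical.

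Macrophages of a brain tumor come from resident microglia and from blood monocytes that enter the tumor. They digest what they engulf in lysosomes, signal through receptors that pair with small adaptor proteins, and can take on a state in which arginase, scavenger receptors and osteopontin are made in quantity. In gliomas these cells are often the most frequent cells that are not tumor cells. Several of the genes are not exclusive to them: Lgals3, Gpnmb and Spp1 are also made by tumor cells or reactive glia.

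GENCODE M21 holds no gene on the opposite strand of any of the 10, so there was no opposite-strand row to read for any of them. Among all rows of the counts, 84.0% of the counted reads stood under the 17.1% of genes with an exon of another gene opposite. Read density was 187 per kb of exon in those genes, against 13.2 where nothing lies opposite. Libraries held 529162 to 643055 reads counted for genes, which is 4.24% to 4.75% of all reads mapped uniquely (95.2% to 95.7% were in no gene). The 10 genes therefore rest on few reads: 59 to 83 in all per PDGFB tumor, 402 to 838 per RAS tumor and 11 to 21 per normal brain. On the same strand Ctss overlaps the pseudogene Hmgb1-ps5, Spp1 overlaps Gm42793 and Mrc1 holds Mir511. Lyz2 has a near-identical neighbor, Lyz1, with 1 read over all PDGFB tumors, 1 over all RAS tumors and 0 over normal brain. Reads that mapped to several places were tallied apart from the genes, at 5.40% to 7.35% of all reads. Reads that fit both copies would thus be missing from Lyz2, and their number is not known.

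The promoters of 8 of the genes were found in a RefSeq table (GRCm38.p6), and those of Arg1 and Tyrobp were not matched. The 250 bases before each start were searched on both strands for GAGGAA, the core of the motif of PU.1, a transcription factor that macrophage development depends on. It occurred in 5 of the 8 (Ctss, Laptm5, Spp1, Cd68 and Mrc1) and in 23.3% of all 32851 such windows. Windows of 70 bases around it are shown for the most abundant of the 10 genes per kb in RAS tumors (Spp1) and in normal brain (Ctss), the usual histological marker (Cd68) and the gene with 3 matches (Mrc1). Capitals mark GAGGAA or its reverse complement TTCCTC, each sequence runs 5′ to 3′ along its gene, and the Cd68 gene is on the minus strand.
Spp1, chr5:104434966-104435035, plus strand: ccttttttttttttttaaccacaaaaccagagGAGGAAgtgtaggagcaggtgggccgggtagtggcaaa
Ctss, chr3:95526590-95526659, plus strand: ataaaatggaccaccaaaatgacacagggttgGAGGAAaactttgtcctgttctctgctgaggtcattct
Cd68, chr11:69666351-69666420, minus strand: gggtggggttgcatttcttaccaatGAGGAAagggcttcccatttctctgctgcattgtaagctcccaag
Mrc1, chr2:14229202-14229271, plus strand: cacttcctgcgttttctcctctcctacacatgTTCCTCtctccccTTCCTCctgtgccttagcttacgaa
The third match of Mrc1 lies 35 bases before its start, outside the stretch shown. TGANTCA, the motif of AP-1 factors, was found in Cd68 alone of the 8 (at 149 and 24 bases before the start; 6.75% of all windows). The pattern TCANGTG, with any base at N, was matched as TCAAGTG in Lyz2 and as TCAGGTG in Lgals3 (12.2% of all windows). It is wider than the motif of MITF and TFE factors, and these 2 matches are not that motif. No match overlapped another. A match is a run of letters and not a measured site.

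All 10 genes were highest in RAS tumors, and in 9 of them PDGFB tumors stood between RAS tumors and normal brain on their mean CPM (a library's reads scaled to a common total of reads counted for genes). Laptm5 was the exception, with normal brain between the tumors. The low-count filter kept 7 of the 10 genes; Cd68, Mrc1 and Tyrobp had too few reads. A gene that passed such a filter through RAS tumors had to differ from the rest, so the counts that follow describe the 7 and support nothing further. In edgeR's fit of 7722 genes, 5 of the 7 were called higher in PDGFB tumors than in normal brain at an adjusted p under 0.05 (20.2% of all genes tested were higher), with Laptm5 and Arg1 not passing. All 7 were called higher in RAS tumors than in normal brain (26.9% of all genes tested) and all 7 lower in PDGFB than in RAS tumors (17.4% of all genes tested). The median log2 fold changes of the 7 were 2.29, 5.80 and −3.21 in these comparisons, against −0.00, 0.02 and 0.03 over all genes tested. With every library compared by CPM, PDGFB tumors lay wholly above normal brain in 5 of the 7 (28.2% of all genes tested), RAS tumors wholly above normal brain in 7 of 7 (25.8%) and PDGFB tumors wholly below RAS tumors in 6 of 7 (8.88%). Without normal brain 3, the library with the differing title, 8 of the 10 genes passed the filter, of which 5, 8 and 7 were called in these comparisons. Leaving out normal brain 1 or normal brain 2 gave the same numbers. The comparisons were known when the genes were chosen, and nothing is read from these counts.

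**Figure D1:**
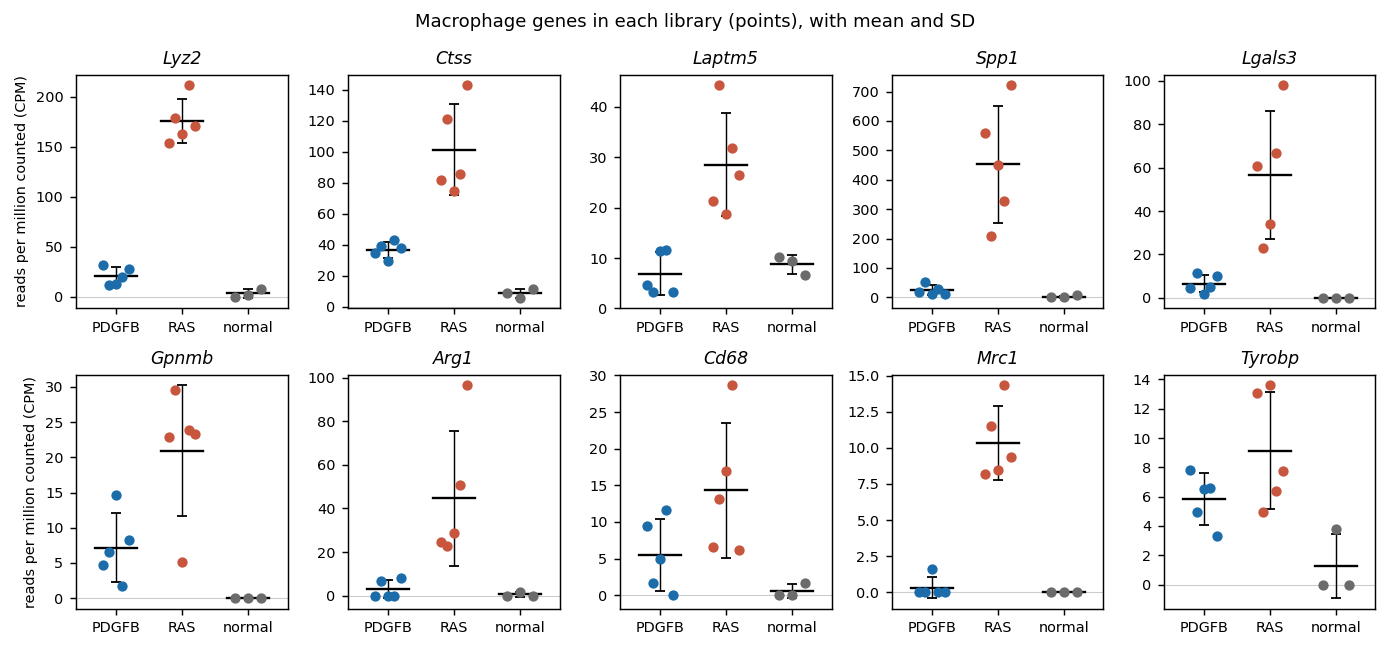
CPM of the 10 macrophage genes on the vertical axes, a panel per gene with its own scale. Points are libraries (5 PDGFB tumors, 5 RAS tumors, 3 normal brains), long bars the group mean and whiskers the SD; every RAS tumor lies above every normal brain in all 10 panels, and Gpnmb, Cd68 and Tyrobp are the panels in which the tumor groups overlap.

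Lyz2 (chromosome 10, 117277331 to 117282321, minus strand, on GRCm38 as are all gene positions here) encodes the lysozyme of macrophages, an enzyme that cuts bacterial cell walls. It had 20, 7, 8, 12 and 17 reads in PDGFB tumors 1 to 5, against 94, 109, 96, 133 and 110 in RAS tumors 1 to 5 and 0, 1 and 5 in normal brains 1 to 3. The 3 groups did not overlap, and RAS tumors varied little among themselves. Mean levels were 20.8 ± 8.84 CPM in PDGFB tumors, 176 ± 22.1 CPM in RAS tumors (SD, n = 5 each) and 3.38 ± 4.33 CPM in normal brain (SD, n = 3). The fitted log2 fold change was 2.29 ± 0.60 (SE) for PDGFB tumors against normal brain, 5.50 ± 0.53 for RAS tumors against normal brain and −3.21 ± 0.33 for PDGFB against RAS tumors. Normal brain 3, the library titled MBT-F2, held 5 of the 6 normal reads, and without it the first pair of values became 4.11 and 7.30.

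Ctss (chromosome 3, 95526786 to 95556403, plus strand) encodes cathepsin S, a lysosomal protease that trims the invariant chain of MHC class II. PDGFB tumors 1 to 5 had 22, 24, 18, 26 and 23 reads, RAS tumors 1 to 5 had 50, 74, 44, 54 and 92, and normal brains 1 to 3 had 5, 3 and 7. PDGFB tumors were the most even group, and again no group overlapped another. Ctss averaged 36.9 ± 5.17 CPM in PDGFB tumors, 101 ± 29.5 CPM in RAS tumors (SD, n = 5 each) and 8.58 ± 2.95 CPM in normal brain (SD, n = 3). It was 3.55-fold higher in PDGFB tumors and 10.8-fold higher in RAS tumors than in normal brain, and 3.04-fold lower in PDGFB than in RAS tumors (log2 fold change −1.60 ± 0.25 SE), the smallest gap between the tumors among the 7 fitted genes.

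Laptm5 (chromosome 4, 130913125 to 130936141, plus strand) encodes a lysosomal membrane protein of blood-derived cells that takes part in the breakdown of antigen receptors. It had 3, 2, 7, 7 and 2 reads in PDGFB tumors 1 to 5, against 13, 27, 11, 20 and 17 in RAS tumors 1 to 5 and 6, 5 and 4 in normal brains 1 to 3. PDGFB tumors 3 and 4 lay above all 3 normal brains in CPM and the other 3 PDGFB tumors below them, so the groups overlapped. Levels averaged 6.86 ± 4.27 CPM in PDGFB tumors, 28.5 ± 10.2 CPM in RAS tumors (SD, n = 5 each) and 8.76 ± 1.90 CPM in normal brain (SD, n = 3). The log2 fold change was −0.57 ± 0.54 (SE) for PDGFB tumors against normal brain, which did not pass, 1.59 ± 0.47 for RAS tumors against normal brain and −2.16 ± 0.40 for PDGFB against RAS tumors.

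Gpnmb (chromosome 6, 49036546 to 49070929, plus strand) encodes a glycoprotein of lysosomes and melanosomes made by lipid-laden macrophages. No read was counted in any normal brain. PDGFB tumors 1 to 5 had 3, 4, 9, 1 and 5 reads, and RAS tumors 1 to 5 had 14, 18, 3, 15 and 15. RAS tumor 3, at 5.10 CPM, fell among the PDGFB tumors, and the other RAS tumors lay between 22.9 and 29.5 CPM. Over the whole group Gpnmb was at least 4.11-fold higher in PDGFB tumors and at least 12.1-fold higher in RAS tumors than in normal brain (lower bounds from 3 reads over normal brain). PDGFB tumors stood 1.66 ± 0.52 (SE) below RAS tumors on the log2 scale; without PDGFB tumor 1 or without PDGFB tumor 4 (−1.53 and −1.38) the gene was no longer called.

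Cd68 (chromosome 11, 69664213 to 69666153, minus strand) encodes a lysosomal membrane glycoprotein widely used to stain macrophages. It had 6, 1, 3, 7 and 0 reads in PDGFB tumors 1 to 5, 4, 8, 10, 18 and 4 in RAS tumors 1 to 5 and 0, 0 and 1 in normal brains 1 to 3. The tumor groups overlapped widely, and PDGFB tumors 2 and 5 lay within the range of normal brain. By summed counts per counted reads the ratio was 9.53 (95% counting interval 1.49 to 398) for PDGFB tumors over normal brain and 24.6 (4.19 to 993) for RAS tumors over normal brain, both resting on 1 normal read. PDGFB tumors were 2.58-fold lower than RAS tumors (1.44 to 4.81). These intervals, like those of the genes below, pool the reads of each group. They cover counting error only and leave out the spread between libraries. In a fit with no filter, which uses that spread, the log2 fold change between PDGFB and RAS tumors was −1.40 ± 0.55 (SE).

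Tyrobp (chromosome 7, 30413760 to 30417585, plus strand) encodes DAP12, the adaptor through which Trem2 and related receptors signal. PDGFB tumors 1 to 5 had 5, 3, 4, 4 and 2 reads, RAS tumors 1 to 5 had 8, 3, 8, 4 and 5, and normal brains 1 to 3 had 0, 2 and 0. RAS tumors 2, 4 and 5 lay inside the PDGFB range. Tyrobp was the gene in which the tumors differed least by reads. PDGFB tumors were lower than RAS tumors by a ratio of 1.55 (95% counting interval 0.828 to 2.97, without the spread between tumors). In the fit with no filter the log2 fold change between PDGFB and RAS tumors was −0.68 ± 0.60 (SE). The ratio to normal brain was 5.05 (1.21 to 44.9) for PDGFB tumors and 7.82 (1.97 to 67.8) for RAS tumors.

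Spp1 (chromosome 5, 104435118 to 104441050, plus strand) encodes osteopontin, a secreted phosphoprotein that binds integrins and Cd44. It had 12, 31, 8, 17 and 7 reads in PDGFB tumors 1 to 5, against 341, 128, 264, 205 and 464 in RAS tumors 1 to 5 and 0, 0 and 4 in normal brains 1 to 3. The lowest RAS tumor, RAS tumor 2, still held more than 4 times the reads of the highest PDGFB tumor. Spp1 averaged 24.5 ± 16.1 CPM in PDGFB tumors, 453 ± 199 CPM in RAS tumors (SD, n = 5 each) and 2.20 ± 3.82 CPM in normal brain (SD, n = 3). The log2 fold change was 3.06 ± 0.86 (SE) for PDGFB tumors against normal brain, 7.42 ± 0.75 for RAS tumors against normal brain and −4.36 ± 0.45 for PDGFB against RAS tumors, a 20.5-fold gap. All normal reads came from normal brain 3, the library titled MBT-F2, so that without it the normal group was at 0 and the fitted values, 6.82 and 11.2, depended on the prior count. The PDGFB call against normal brain held without normal brain 3 but was lost under limma-voom (3.36).

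Lgals3 (chromosome 14, 47367751 to 47386160, plus strand) encodes galectin-3, a secreted lectin that binds sugar chains on cell surfaces and damaged lysosomes. PDGFB tumors 1 to 5 had 3, 7, 1, 3 and 6 reads and RAS tumors 1 to 5 had 37, 14, 20, 42 and 63, while no normal brain had a read. The lowest RAS tumor was again RAS tumor 2, above every PDGFB tumor. Against normal brain Lgals3 was at least 3.74-fold higher in PDGFB tumors and at least 32.8-fold higher in RAS tumors. PDGFB tumors were 9.42-fold lower than RAS tumors (log2 fold change −3.24 ± 0.48 SE). Under limma-voom the call for PDGFB tumors against normal brain was lost (2.63).

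Arg1 (chromosome 10, 24915221 to 24927484, minus strand) encodes arginase 1, which splits arginine into ornithine and urea and is made by alternatively activated mouse macrophages. PDGFB tumors 1 to 5 had 0, 4, 0, 0 and 5 reads, RAS tumors 1 to 5 had 15, 14, 17, 32 and 62, and normal brains 1 to 3 had 0, 1 and 0. In PDGFB tumors Arg1 was thus read in tumors 2 and 5 and not in the other 3, whereas every RAS tumor exceeded every other library. Mean levels were 2.97 ± 4.11 CPM in PDGFB tumors and 44.7 ± 31.0 CPM in RAS tumors (SD, n = 5 each). The log2 fold change was −4.00 ± 0.69 (SE) for PDGFB against RAS tumors and −4.77 without PDGFB tumor 5. Against normal brain the count ratio, on 1 normal read, was 78.2 for RAS tumors (95% counting interval 13.8 to 3112) and 5.05 for PDGFB tumors (0.699 to 221), and the fitted value for PDGFB tumors did not pass.

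Mrc1 (chromosome 2, 14229392 to 14332057, plus strand) encodes the mannose receptor, an endocytic receptor of alternatively activated and border macrophages. Its reads numbered 0, 0, 1, 0 and 0 in PDGFB tumors 1 to 5, 5, 7, 5, 9 and 6 in RAS tumors 1 to 5 and 0 in each normal brain. RAS tumors were thus the sole group with reads in every library. Over the group Mrc1 was at least 5.96-fold higher in RAS tumors than in normal brain. PDGFB tumors were lower than RAS tumors by a ratio of 31.9 with a 95% counting interval of 5.33 to 1298.

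**Figure D2:**
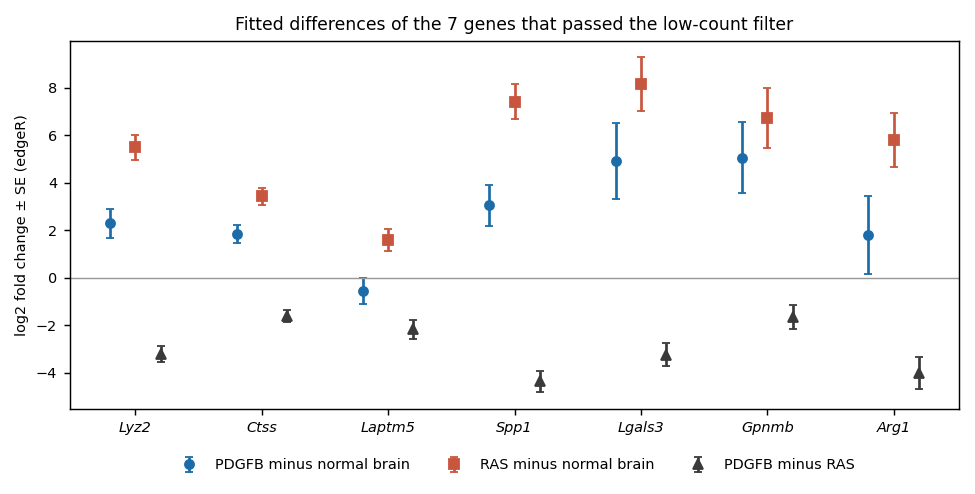
Fitted log2 fold changes (edgeR, points) with their standard errors (whiskers) for the 7 genes that passed the low-count filter; circles are PDGFB minus normal brain, squares RAS minus normal brain and triangles PDGFB minus RAS. Squares lie above circles for every gene, every triangle lies below 0, and Laptm5 (−0.57 ± 0.54) is the gene whose circle lies below 0; for Lgals3 and Gpnmb, at 0 reads in normal brain, the tumor values against normal brain depend on the prior count.

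The genes did not keep the same proportions in the 3 tissues. Per kb of exon, the mean level in PDGFB tumors was highest for Ctss (27.1 CPM per kb), Lyz2 (15.8) and Spp1 (14.9). In RAS tumors the order was Spp1 (275 CPM per kb), Lyz2 (133) and Ctss (74.7), and in normal brain Ctss (6.32), Lyz2 (2.57) and Laptm5 (2.31). Spp1 made up 10.4% to 37.3% of the reads of the 10 genes in PDGFB tumors, 31.8% to 58.7% in RAS tumors and 0% to 19.0% in normal brain. Ctss, in contrast, made up 28.9% to 34.3% in PDGFB tumors, 8.61% to 18.4% in RAS tumors and 25.0% to 45.5% in normal brain. The ranges of Ctss in the 2 tumor groups did not overlap and those of Spp1 did.

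Reads relative to Ctss in the same library carry no scaling between libraries. Spp1 per Ctss read was 0.304 to 1.29 in PDGFB tumors, 1.73 to 6.82 in RAS tumors and 0 to 0.571 in normal brain. Lyz2 per Ctss read was 0.292 to 0.909 in PDGFB tumors, 1.20 to 2.46 in RAS tumors and 0 to 0.714 in normal brain. Both ratios were higher in every RAS tumor than in any other library. Laptm5 per Ctss read was instead highest in normal brain, at 0.571 to 1.67, where all 3 samples exceeded every tumor. The tumor groups overlapped in this ratio, at 0.0833 to 0.389 in PDGFB tumors and 0.185 to 0.370 in RAS tumors. Lgals3 and Arg1 per Ctss read overlapped between the tumors through RAS tumor 2 alone, at 0.189 for both genes.

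**Figure D3:**
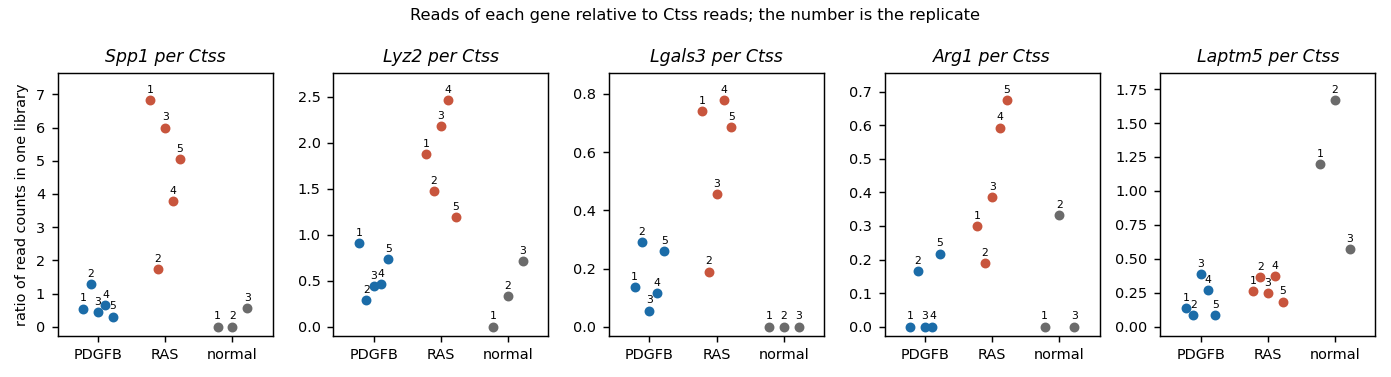
Reads of Spp1, Lyz2, Lgals3, Arg1 and Laptm5 divided by the Ctss reads of the same library (vertical axes, own scale per panel), one point per library with its replicate number. RAS tumors lie above PDGFB tumors throughout for Spp1 and Lyz2, RAS tumor 2 lies lowest of its group for Spp1, Lgals3 and Arg1, and the normal brains lie highest for Laptm5.

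RAS tumors differed among themselves. RAS tumor 5 had the highest CPM of its group for 4 genes (Ctss, Spp1, Lgals3 and Arg1) and the highest sum of the 10 genes, 1303 CPM. RAS tumor 2 had the lowest sum, 660 CPM, and the lowest level of Spp1, Lgals3, Arg1 and Tyrobp, yet the highest of Laptm5 and Gpnmb. That library also stood apart from its group over all genes, at −11.2 on the first principal component (56.4% of the variance) where the other 4 RAS tumors lay between −53.3 and −71.4. It held 42 reads of the neuronal gene Snap25, against 0 to 11 in the other RAS tumors. The 9 neuron markers other than Nefm, a neurofilament gene, summed to 474 CPM there, against 255 to 370 CPM in the other RAS tumors. Nefm itself went the other way, at 3468 CPM against 3831 to 8196 CPM. Astrocyte markers summed to 657 CPM in RAS tumor 2, against 117 to 232 CPM in the other RAS tumors. The part of these cells in the levels of RAS tumor 2 was not tested. Without RAS tumor 2 the counts of called macrophage genes were again 5, 7 and 7 of 7. Summed CPM of the 10 genes was 96.2 to 136 in PDGFB tumors, the narrowest relative range of the 3 groups, 660 to 1303 in RAS tumors and 18.7 to 34.7 in normal brain.

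Further genes of macrophage biology were taken from 8 lists, also drawn up with earlier results known. They were tested in the same edgeR fit and adjusted over all 7722 genes. Per list, up to 4 genes are named, picked as the called ones with the largest changes. Their small adjusted p values follow from that choice and are given as a description. Over all genes tested, PDGFB tumors had 20.2% called higher and 25.1% called lower than normal brain. RAS tumors had 26.9% called higher and 29.3% called lower than normal brain. PDGFB tumors had 14.6% called higher and 17.4% called lower than RAS tumors. As with the 10 genes, a list gene that passed the low-count filter through RAS tumors had to be high there, so counts and medians describe the genes that passed and do not rank the lists. Of 28 genes of lysosomes and lipid-loaded phagocytes, 19 were tested. PDGFB tumors had 7 higher and 0 lower than normal brain, RAS tumors had 18 higher and 0 lower than normal brain, and PDGFB tumors had 0 higher and 16 lower than RAS tumors (20.2% higher, 26.9% higher and 17.4% lower over all genes tested). Their median log2 fold changes were 0.90, 2.31 and −1.53. Of the 19, 11 have no gene on the opposite strand, with 5 higher, 11 higher and 10 lower in the same order. Cd63, a membrane protein of late endosomes, averaged 35.9 ± 10.03 CPM in PDGFB tumors, 148 ± 37.4 CPM in RAS tumors (SD, n = 5 each) and 3.87 ± 5.30 CPM in normal brain (SD, n = 3), with an edgeR log2 fold change of −2.19 between PDGFB and RAS tumors (adjusted p = 9.1e-05). Ctsl, the protease cathepsin L, was 7.52-fold lower in PDGFB than in RAS tumors (adjusted p = 2.96e-06), but its row lies opposite Gm47123. Plin2, which coats lipid droplets, was 11.6-fold lower in PDGFB than in RAS tumors (adjusted p = 3.76e-05). Axl, a receptor for the clearance of dead cells, was 6.09-fold lower in PDGFB than in RAS tumors (adjusted p = 2.8e-05); its higher level in PDGFB tumors than in normal brain (adjusted p = 0.0351) was lost without PDGFB tumor 2 (adjusted p = 0.0580), normal brain 1 (0.0693) or normal brain 2 (0.0921).

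Of 24 genes linked to monocyte-derived macrophages, 10 were tested. PDGFB tumors had 4 higher and 0 lower than normal brain, RAS tumors had 9 higher and 0 lower than normal brain, and PDGFB tumors had 0 higher and 8 lower than RAS tumors, with medians of 2.36, 5.73 and −3.16 among the 10 that passed (20.2% higher, 26.9% higher and 17.4% lower over all genes tested). Just 3 of the 10 have no gene on the opposite strand, with 1 higher, 3 higher and 3 lower in the same order. Anxa1, an annexin that restrains inflammation, had 2, 1, 0, 0 and 1 reads in PDGFB tumors 1 to 5, 66, 23, 36, 66 and 61 in RAS tumors 1 to 5 and 0 in normal brain, a 59.5-fold gap between PDGFB and RAS tumors (edgeR adjusted p = 1.64e-06). S100a6, a calcium-binding protein, was 35.4-fold lower (adjusted p = 2.71e-06) and Tgfbi, a matrix protein, 12.2-fold lower in PDGFB than in RAS tumors (adjusted p = 2.6e-05). These genes are also made by tumor and stromal cells, and the classical monocyte receptor Ccr2 was not tested for too few reads.

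Receptors and partners of osteopontin and galectins were counted because Spp1 and Lgals3 encode their ligands. Of 15 genes 11 were tested. PDGFB tumors had 5 higher and 1 lower than normal brain, RAS tumors had 9 higher and 1 lower than normal brain, and PDGFB tumors had 0 higher and 8 lower than RAS tumors (20.2% higher, 26.9% higher and 17.4% lower over all genes tested). No gene lies opposite 6 of the 11, with 2 higher, 6 higher and 6 lower in the same order. Cd44, a receptor of hyaluronan and osteopontin, had 10, 7, 9, 4 and 4 reads in PDGFB tumors 1 to 5, against 60, 34, 30, 43 and 50 in RAS tumors 1 to 5 and none in normal brain. It was 6.89-fold lower in PDGFB than in RAS tumors (edgeR adjusted p = 1.32e-05), and at least 6.36-fold higher in PDGFB tumors and 40.4-fold higher in RAS tumors than in normal brain. Itgb3, the integrin subunit that pairs with Itgav to bind osteopontin, was 17.4-fold lower in PDGFB than in RAS tumors (adjusted p = 0.00012). Itgb1, the common integrin partner, averaged 255 ± 33.2 CPM in PDGFB tumors, 831 ± 363 CPM in RAS tumors (SD, n = 5 each) and 36.2 ± 16.5 CPM in normal brain (SD, n = 3; edgeR adjusted p = 0.00011 for PDGFB against RAS tumors). Lgals1, galectin-1, was 11.0-fold lower in PDGFB than in RAS tumors (adjusted p = 9.76e-07).

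General myeloid genes were mostly too low to test. Of 30 pan-myeloid genes 8 were tested. PDGFB tumors had 0 higher and 2 lower than normal brain, RAS tumors had 6 higher and 1 lower than normal brain, and PDGFB tumors had 1 higher and 5 lower than RAS tumors, with medians of 0.74, 2.37 and −1.39. In PDGFB tumors, 2 of 8 lower than normal brain was no larger a share than the 25.1% of all genes tested. The shares over all genes were 26.9% for higher in RAS tumors than in normal brain and 17.4% for lower in PDGFB than in RAS tumors. Just 4 of the 8 have no gene on the opposite strand. Of these, 0 passed for PDGFB tumors against normal brain and 4 were higher in RAS tumors than in normal brain. Between the tumors, 2 were lower in PDGFB tumors. Fcgr3, an activating antibody receptor, had 4, 2, 4, 1 and 9 reads in PDGFB tumors 1 to 5, against 11, 16, 15, 16 and 29 in RAS tumors 1 to 5 and 2, 1 and 3 in normal brains 1 to 3. It was 4.66-fold lower in PDGFB than in RAS tumors (edgeR adjusted p = 0.00109), and PDGFB tumors did not pass against normal brain (adjusted p = 0.483, log2 fold change 0.65 ± 0.72 SE). Fcgr2b, the inhibitory antibody receptor, was 7.07-fold lower in PDGFB than in RAS tumors (adjusted p = 0.000469; its row lies opposite Gm38204). Itgam, the integrin CD11b, was higher in RAS tumors than in normal brain (adjusted p = 0.0176) but not without normal brain 1 (adjusted p = 0.0724) or normal brain 3 (0.0663). Lcp1, an actin-bundling protein of blood cells, was lower in PDGFB than in RAS tumors (adjusted p = 0.0193, and 0.0539 without PDGFB tumor 4), with its row opposite Gm15628 and Gm15629. The rows of Csf1r and Plek, which lie opposite Hmgxb3 and Cnrip1 and were picked after their values were seen, made up the pair below normal brain in PDGFB tumors (log2 fold change −0.57 with adjusted p = 0.0153 for Csf1r and −0.85 with adjusted p = 0.00468 for Plek). Spi1, the gene of PU.1, was too low to test, with 4 reads over PDGFB tumors, 22 over RAS tumors and 3 over normal brain; RAS tumor 5 held 14 of the 22, and the other RAS tumors 8.

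Genes of resting microglia fell on both sides of normal brain in PDGFB tumors. Of 20, 7 were tested. PDGFB tumors had 2 higher and 3 lower than normal brain, RAS tumors had 3 higher and 0 lower than normal brain, and PDGFB tumors had 0 higher and 3 lower than RAS tumors. Over all genes tested the shares were 20.2% higher and 25.1% lower, 26.9% higher, and 17.4% lower in these comparisons, and with 7 genes nothing is read from the counts. Sparc, a matricellular protein also made by astrocytes and vessels, averaged 83.4 ± 26.0 CPM in PDGFB tumors, 588 ± 199 CPM in RAS tumors (SD, n = 5 each) and 69.3 ± 12.5 CPM in normal brain (SD, n = 3; edgeR adjusted p = 6.24e-07 for PDGFB against RAS tumors). Cx3cr1, the fractalkine receptor (opposite Gm33858), did not pass in PDGFB tumors (log2 fold change −0.73, adjusted p = 0.0623; 0.0495 without PDGFB tumor 1 and 0.0363 with the 2 groups alone) or RAS tumors (0.32, adjusted p = 0.391) against normal brain and was 2.07-fold lower in PDGFB than in RAS tumors (adjusted p = 0.00656). Selplg, a selectin ligand, stood below normal brain in PDGFB tumors (−1.74, adjusted p = 0.0165), though not without normal brain 1 (0.0905) or normal brain 3 (0.0632). Olfml3, a secreted microglial protein, was higher in both tumors than in normal brain (1.66, adjusted p = 0.0157 in PDGFB tumors, which became 0.0551 without normal brain 2, 0.0622 under DESeq2 and 0.0709 under limma-voom, and 2.61, adjusted p = 0.000247 in RAS tumors). The defining microglial genes Tmem119 and P2ry12 were too low to test: Tmem119 had 19 reads over PDGFB tumors, 30 over RAS tumors (15 of them in RAS tumor 5) and 6 over normal brain (4 of them in normal brain 3). P2ry12, whose row lies opposite Med12l, had 11 reads over PDGFB tumors, 8 over RAS tumors (6 of them in RAS tumor 2) and 19 over normal brain (12 of them in normal brain 1).

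The list of alternative activation and border macrophages, to which Arg1 and Mrc1 belong by function, held called genes on both sides between the tumors. Of 24 genes 6 were tested. PDGFB tumors had 3 higher and 0 lower than normal brain, RAS tumors had 5 higher and 0 lower than normal brain, and PDGFB tumors had 1 higher and 3 lower than RAS tumors (20.2% higher, 26.9% higher, and 14.6% higher and 17.4% lower over all genes tested). No gene lies opposite 4 of the 6, with 2 higher, 3 higher, and 1 higher and 1 lower in the same order. Cd163, the scavenger receptor for hemoglobin bound to haptoglobin, ran opposite to the 10 genes between the tumors, with 292, 471, 189, 257 and 245 reads in PDGFB tumors 1 to 5, against 152, 69, 115, 78 and 9 in RAS tumors 1 to 5 and 13, 16 and 25 in normal brains 1 to 3. Every PDGFB tumor lay above every RAS tumor, and RAS tumor 5, highest for 4 of the macrophage genes, lay below all other libraries in Cd163. The gene has none on the opposite strand, and it was 3.11-fold higher in PDGFB than in RAS tumors (edgeR log2 fold change 1.64 ± 0.42 SE, adjusted p = 0.0068). Its higher level in RAS tumors than in normal brain (adjusted p = 0.00582) was lost under limma-voom (0.0752). Hmox1, heme oxygenase 1, did not pass between PDGFB and RAS tumors (log2 fold change 0.09 ± 0.28 SE, adjusted p = 0.834), at 58.1 ± 20.4 CPM in PDGFB tumors, 49.5 ± 10.1 CPM in RAS tumors (SD, n = 5 each) and 1 read over all normal brains. Stab1, a scavenger receptor whose row lies opposite Nt5dc2, was 3.54-fold lower in PDGFB than in RAS tumors (adjusted p = 8.09e-05). Klf4, a transcription factor of several cell types, was 7.99-fold lower in PDGFB than in RAS tumors (adjusted p = 0.0029) and higher in RAS tumors than in normal brain (adjusted p = 0.0105, and 0.0541 without normal brain 3).

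**Figure D4:**
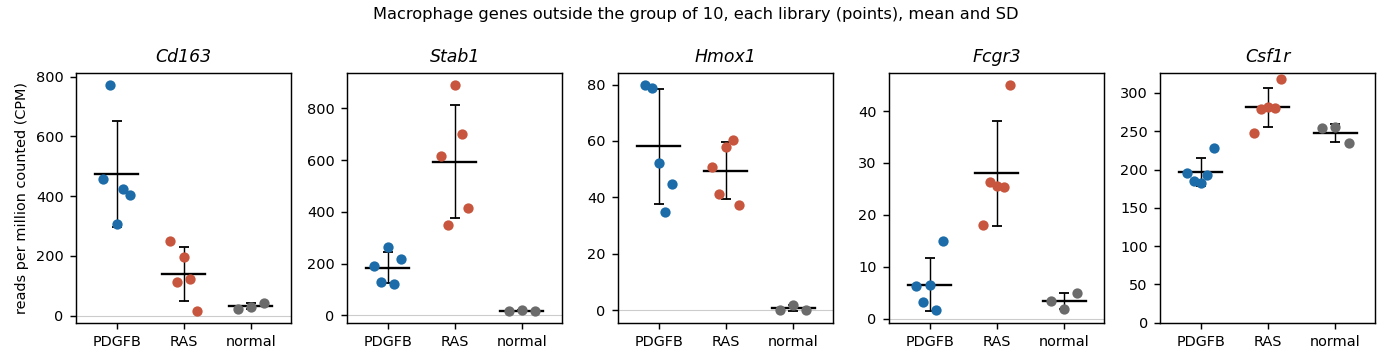
CPM (vertical axes, own scale per panel) of 5 macrophage genes outside the 10, with points for libraries, long bars for the group mean and whiskers for the SD. Cd163 is higher in all 5 PDGFB tumors than in any RAS tumor, Stab1 and Fcgr3 are higher in RAS tumors, Hmox1 overlaps between the tumors and is near 0 in normal brain, and Csf1r, whose row lies opposite Hmgxb3, stands between 183 and 319 CPM in every library.

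Among growth and signaling genes of macrophages, 6 of 23 were tested. PDGFB tumors had 2 higher and 2 lower than normal brain, RAS tumors had 2 higher and 2 lower than normal brain, and PDGFB tumors had 0 higher and 1 lower than RAS tumors. The shares over all genes tested were 20.2% higher and 25.1% lower, 26.9% higher and 29.3% lower, and 17.4% lower in these comparisons. With 6 genes nothing is read from the counts. Cx3cl1, the neuronal ligand of Cx3cr1, was lower in both tumors, at 11.5 ± 8.71 CPM in PDGFB tumors, 11.3 ± 8.04 CPM in RAS tumors (SD, n = 5 each) and 81.9 ± 3.16 CPM in normal brain (SD, n = 3; edgeR adjusted p = 7.91e-05 for PDGFB and 6.75e-05 for RAS tumors against normal brain). Il34, a ligand of Csf1r (opposite Gm15894 and Gm15895), exceeded normal brain in PDGFB tumors (log2 fold change 1.97, adjusted p = 0.00203) and did not pass between PDGFB and RAS tumors (0.87, adjusted p = 0.0551); that comparison passed without RAS tumor 2 (0.0424), RAS tumor 3 (0.0341) or normal brain 1 (0.0482), and under limma-voom, no filter, library totals and median-of-ratios factors (0.0341 to 0.0497). For RAS tumors against normal brain Il34 did not pass (1.10, adjusted p = 0.0579), and passed without RAS tumor 4 (0.0283), RAS tumor 5 (0.0124) or normal brain 3 (0.0323), and under library totals (0.0464). Lyn, a Src-family kinase (opposite Gm26857), was higher in PDGFB tumors (adjusted p = 5.14e-05) and in RAS tumors (adjusted p = 4.46e-05) than in normal brain. Cebpb, a transcription factor of myeloid cells (opposite Tmem189), was 5.68-fold lower in PDGFB than in RAS tumors (adjusted p = 0.000513).

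Arginine and polyamine genes were counted beside Arg1. Of 14 genes 6 were tested. PDGFB tumors had 1 higher and 1 lower than normal brain, RAS tumors had 2 higher and 1 lower than normal brain, and PDGFB tumors had 0 higher and 2 lower than RAS tumors. Over all genes tested the shares were 20.2% higher and 25.1% lower, 26.9% higher and 29.3% lower, and 17.4% lower in these comparisons. With 6 genes nothing is read from the counts. Odc1, which turns ornithine into putrescine, had 23, 22, 24, 21 and 22 reads in PDGFB tumors 1 to 5, against 84, 45, 57, 79 and 91 in RAS tumors 1 to 5 and 5, 3 and 0 in normal brains 1 to 3. Its log2 fold change was 2.68 ± 0.51 (SE) for PDGFB tumors against normal brain (edgeR adjusted p = 0.000432), 4.48 ± 0.49 for RAS tumors against normal brain (adjusted p = 1.41e-06) and −1.80 ± 0.30 for PDGFB against RAS tumors (adjusted p = 0.000234). Sat1, which acetylates polyamines, was 2.49-fold lower in PDGFB than in RAS tumors (adjusted p = 0.0125). Arg2, the mitochondrial arginase, was lower than normal brain in PDGFB tumors (log2 fold change −1.86, adjusted p = 8.23e-05) and in RAS tumors (−1.26, adjusted p = 0.00125), but its row lies opposite Gm48780 and Vti1b. Between PDGFB and RAS tumors Arg2 did not pass (−0.60, adjusted p = 0.0983; 0.0373 without RAS tumor 1).

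**Figure D5:**
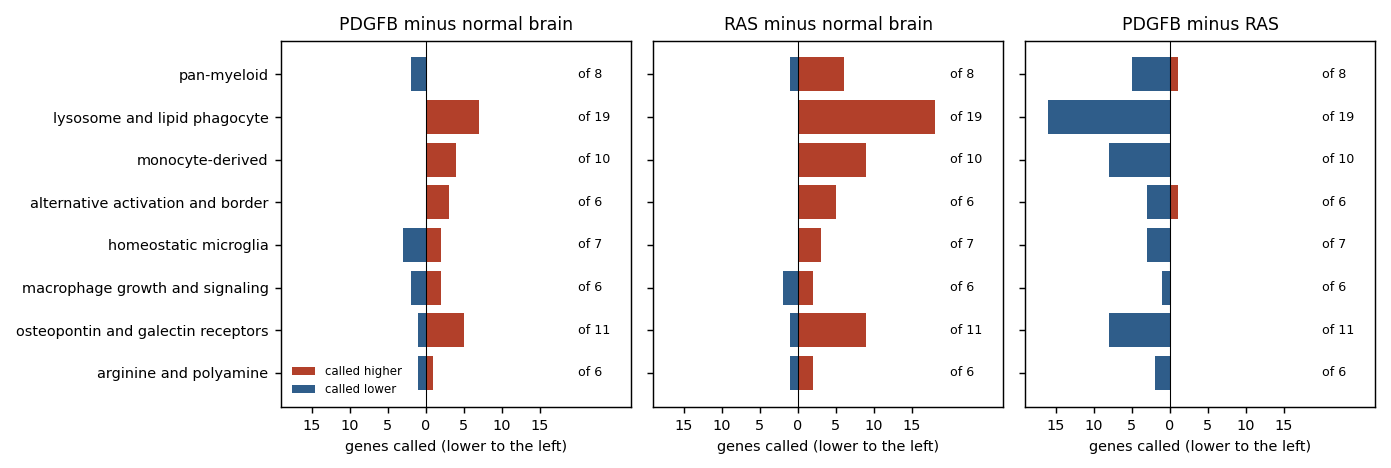
Number of genes called higher (right of 0) or lower (left of 0) at an adjusted p under 0.05 in each of the 8 lists, with the number tested at the right, for PDGFB minus normal brain, RAS minus normal brain and PDGFB minus RAS. Lysosome and lipid phagocyte genes, monocyte-derived genes and osteopontin and galectin receptors hold 18, 9 and 9 genes higher in RAS tumors than in normal brain and 16, 8 and 8 lower in PDGFB than in RAS tumors (26.9% and 17.4% of all genes tested). Against normal brain, PDGFB tumors have called genes on both sides among homeostatic microglia, growth and signaling, arginine and polyamine, and osteopontin and galectin receptor genes.

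Summed levels of markers of other cell types are set beside these comparisons. Neutrophil markers held few reads: 4 of 8 (Ly6g, Cxcr2, Retnlg and Elane) were at 0 in every library, and nearly all reads were those of Mmp9, which macrophages also make. They summed to 1.63 to 20.4 CPM in PDGFB tumors, 1.70 to 80.9 CPM in RAS tumors and 0 in normal brain, with RAS tumor 5 the highest and the other RAS tumors at 18.0 CPM or less. T and NK cell markers had 5 of 9 genes at 0 in every library and summed to 0 to 6.61 CPM in PDGFB tumors, 0 to 1.59 CPM in RAS tumors and 1.65 to 5.67 CPM in normal brain. B cell markers, with 3 of 6 at 0, stayed at 10.9 CPM or less in every library. Dendritic cell markers summed to 14.8 to 41.3 CPM in PDGFB tumors, 7.78 to 62.9 CPM in RAS tumors and 4.96 to 11.9 CPM in normal brain, and endothelial markers to 9.92 to 31.4 CPM in PDGFB tumors, 23.8 to 62.2 CPM in RAS tumors and 20.8 to 22.1 CPM in normal brain. Pericyte and fibroblast markers, all 8 with reads, were higher in RAS tumors, at 11.5 to 51.3 CPM in PDGFB tumors, 88.3 to 389 CPM in RAS tumors and 18.9 to 26.4 CPM in normal brain, with RAS tumor 5 the highest; their part in the differences between tumors was not tested. Astrocyte markers summed to 212 to 512 CPM in PDGFB tumors, 117 to 657 CPM in RAS tumors and 620 to 795 CPM in normal brain, and choroid plexus markers to 22.8 to 54.2 CPM in PDGFB tumors, 9.82 to 31.1 CPM in RAS tumors and 109 to 206 CPM in normal brain. Neuron markers (10 genes) summed to 259 to 653 CPM in PDGFB tumors, 3943 to 8554 CPM in RAS tumors and 5548 to 5906 CPM in normal brain. Most of these reads stood under Nefm, a neurofilament gene with an exon of another gene opposite, at 154 to 345 CPM in PDGFB tumors, 3468 to 8196 CPM in RAS tumors and 3908 to 4365 CPM in normal brain. The other 9 neuron markers summed to 105 to 307 CPM in PDGFB tumors, 255 to 474 CPM in RAS tumors and 1541 to 1639 CPM in normal brain, and oligodendrocyte precursor markers to 617 to 871 CPM in PDGFB tumors, 178 to 333 CPM in RAS tumors and 95.4 to 106 CPM in normal brain. Oligodendrocyte markers (9 genes) summed to 759 to 856 CPM in PDGFB tumors, 569 to 789 CPM in RAS tumors and 1293 to 1712 CPM in normal brain; the part of tissue makeup in the differences from normal brain was not tested.

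The genes whose pattern over the 13 libraries was most like that of the 7 fitted macrophage genes were sought among 6011 genes by the Pearson correlation of log2 CPM with the mean standardized profile, a description that mostly follows the difference between groups. S100a11, a calcium-binding protein with no gene opposite, had r = 0.983 and 2, 3, 4, 2 and 5 reads in PDGFB tumors 1 to 5, 67, 27, 22, 40 and 86 in RAS tumors 1 to 5 and 0 in normal brain. It was 15.9-fold lower in PDGFB than in RAS tumors (edgeR adjusted p = 1.38e-05), and its call for PDGFB tumors against normal brain (adjusted p = 0.0236) was lost without normal brain 3 (0.0532). Igf2r, the receptor that carries enzymes to lysosomes, had r = 0.979 and was 6.86-fold lower in PDGFB than in RAS tumors (adjusted p = 1.72e-05). Igf2r, Anxa1 and Cd44 each overlap a gene on the other strand, with no overlap of exons. The other 3 of the 5 genes most alike lie opposite an exon of a gene on the other strand: Ccdc85b (r = 0.988) opposite Fosl1, Mcat (r = 0.987) opposite Tspo and Grtp1 (r = 0.980) opposite Lamp1.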

How the data were processed

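The members and lists were chosen with earlier results of these data known. The deposited table holds raw counts, whole reads per Ensembl gene, with no normalization by the authors; it was made with fastp 0.22.0 and STAR 2.7.9a on GRCm38, per the submitters' processing notes, and the annotation and strand setting are not given in the sources used here. Per the labels, libraries came from Trizol RNA with a TruSeq RNA kit. Symbols were matched to GENCODE M21, which holds 52135 of the genes. The test was edgeR 4.0.16 under R 4.3.3 (filterByExpr with minimum count 10 and total 15, TMM, quasi-likelihood, 1 coefficient per group, 13 libraries), with Benjamini-Hochberg adjustment over 7722 genes, two-sided, called under 0.05; the procedure was tested on simulated data. SE is the log2 fold change over the root of F. CPM used reads counted for genes. Groups at 0 reads were set to 3 reads for a lower bound, and with 1 to 3 reads the count ratio is given with an exact 95% interval. Such intervals pool the reads of a group and leave out the spread between libraries. Named genes were the 10 members, per list up to 4 called genes with the largest change and at least 10 CPM in a group, and the 5 most like genes; Csf1r, Plek, Spi1, Tmem119, P2ry12, Ccr2, Mmp9, Snap25, Nefm and Lyz1 were added after their values were seen. One oligodendrocyte marker is not reported here, and was taken out of that list after its values were seen. Alternatives were median-of-ratios factors, library totals, other filters, DESeq2 1.42.0, limma-voom (limma 3.58.1), 2 groups alone, genes with none opposite, each library left out and the replicate number as a block.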

Additional observations from a re-analysis of the deposited data

Results flagged for a closer look

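Among 90 groups of 5 tumors checked for a library far from the rest of its group, 5 were set apart, and chance alone sets about 5% apart. Gpnmb in RAS tumor 3 had the lowest level of its group, 5.10 CPM, where the next RAS tumor had 22.9 CPM and the highest 29.5 CPM. Mrc1 in PDGFB tumor 3 was the highest of its group at 1.63 CPM, which is 1 read, with the other 4 at 0. Klf4 in PDGFB tumor 2 was highest at 6.57 CPM, with the next at 1.65 CPM. Cebpb in RAS tumor 5, whose row lies opposite Tmem189, was highest at 143 CPM, with the next RAS tumor at 41.3 CPM. Itgb1 in PDGFB tumor 2 was highest at 314 CPM, with the other PDGFB tumors between 232 and 248 CPM.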

How the results depend on the processing

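No call of a macrophage gene or of a named list gene turned into a call in the opposite direction under any alternative run. Of the log2 fold changes of macrophage genes under alternatives, 20 moved in size and 422 did not. These numbers do not count calls. The 422 include lost calls of Spp1 (under limma-voom) and of Gpnmb (without PDGFB tumor 1 or without PDGFB tumor 4). For the named list genes calls were counted, and 16 values newly passed and 27 no longer passed. The cause of these changes was not tested. Among genes with none on the opposite strand, fewer genes were tested, and 1011 were called for PDGFB tumors against normal brain, 1296 for RAS tumors against normal brain and 709 for PDGFB against RAS tumors, where the full fit called 3498, 4340 and 2476. Leaving out each library in turn gave 2916 to 3710, 3923 to 4470 and 2026 to 3043 called genes. Library totals in place of TMM moved the median gene by 0.23, 0.09 and 0.14 on the log2 scale and changed the higher and lower calls to 2052 and 1557 for PDGFB tumors against normal brain (1558 and 1940 with TMM) and to 1448 and 1075 for PDGFB against RAS tumors (1130 and 1346 with TMM); the calls of the 7 macrophage genes kept their number, at 5, 7 and 7. With PDGFB tumors and normal brain alone in the fit, 3 macrophage genes passed the filter and all 3 were called. Replicate numbers are shared by PDGFB and RAS tumors, and same-numbered tumors deviated together in no regular way (correlations −0.128 to 0.139). So few correlations cannot decide whether a shared number marks a pair. With the replicate block, 1705 genes and 6 of 6 macrophage genes fitted were called between PDGFB and RAS tumors. The opposite-strand rows planned for the 10 genes could not be fitted because none exists. Few counted reads limit Cd68, Mrc1, Tyrobp and every comparison with normal brain, where the 10 genes hold 44 reads in all. Libraries had 13952738 to 15607754 reads each, of which 3.76% to 4.21% were counted for genes. Why so few were counted was not tested.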
